A study of Homo sapiens and Mus musculus with 21 samples.

Results

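The HOX cluster genes are the 39 protein-coding genes of the human reference whose symbol is HOXA, HOXB, HOXC or HOXD followed by a number, among 20056 protein-coding genes in all. They were chosen by symbol alone, without use of any measured value. They lie in 4 clusters: HOXA on chromosome 7 (11 genes), HOXB on chromosome 17 (10 genes), HOXC on chromosome 12 (9 genes) and HOXD on chromosome 2 (9 genes). HOX genes encode homeodomain transcription factors that give cells their position along the head-to-tail axis and along the limbs. Genes at the 3′ end of a cluster (low numbers) act towards the head, and genes at its 5′ end (high numbers) act towards the tail, in the limb tips and in the urogenital tract. Genes with the same number in different clusters are paralogues, derived from 1 ancestral gene, and fall into 13 paralogue groups.

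The study removed PCIF1, the methyltransferase that adds an N6-methyl group to a 2′-O-methylated adenosine next to the mRNA cap and so makes m6Am. The cells were HEK293T, an established line grown from transformed human embryonic kidney. Its 21 libraries include 2 miCLIP libraries of PCIF1 knockout (KO) cells and 1 of wild-type (WT) cells, and input RNA of 3 KO and 2 WT libraries. Ribosome profiling (3 KO and 2 WT libraries), SLAM-seq (KO and WT, 1 library each at 0, 6 and 12 h of chase) and miCLIP of mouse embryonic fibroblasts (2 libraries) make up the rest. The labels name no drug or other allele, and they do not say whether the KO libraries come from 1 clone or from separate cultures, so a p-value here measures how far these libraries differ, which may reflect technique alone. In miCLIP an antibody against N6-methyladenosine is crosslinked to polyadenylated RNA, and reverse transcription then leaves substitutions beside the methylated base. The m6A mark inside mRNAs is written by METTL3 and METTL14 at the DRACH motif (any base but C, a purine, the methylated A, a C, any base but G), mostly towards the 3′ end of transcripts.

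Every site below is a position in the authors' deposited lists, with the number of reads that carry the substitution (m) and the number of reads there (k). The share m/k is a substitution rate, not the fraction of RNA molecules that carry the mark. A site was given to the HOX gene with the shortest span that holds it on its own strand. Of the 366 distinct HOX sites, 138 lie in the spans of 2 or more genes, counted on either strand. The gene named for those sites is less certain. The lists hold sites in polyadenylated RNA, and no list says how many reads fell on HOX RNA without a site, so a missing site is a site not listed, not an absence of the mark or of the RNA. With 1 WT library no difference between genotypes has a test. Exact Clopper-Pearson intervals at 95% are given, and they cover counting error only. The input counts are listed under Ensembl identifiers that the sources used here pair with no HOX symbol, so HOX RNA levels, ribosome occupancy and stability are not analysed here, and neither are the mouse lists.

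A few sequences show what is being counted. They were read from RefSeq start windows (GRCh38.p14), which cover 20 of the 39 HOX genes, and the DRACH motif is in capitals with 12 bases on each side of the methylated A. Shown are the m6A sites in the windows of HOX starts that at least 2 of the 3 HEK293T libraries list, since these are the HOX sites whose letters can be read. The listed position is the C after the methylated A: in 597 of 597 cases of a site in a start window of the reference the motif was centred 1 base before the listed position, and in 0 on it.
HOXD10, 23 nt past the start, chr2:176116789-176116813, plus strand: agcctacaaaGGACAcaatctctct
HOXD10, 220 nt before the start, chr2:176116546-176116570, plus strand: ctggagaggcGGACAggagggcggc
HOXD11, 109 nt before the start, chr2:176107159-176107183, plus strand: atagatataaGGACAtttctcttca
HOXA9, 19 nt before the start, chr7:27165544-27165568, minus strand: acttattaggTGACTgtacttcccc
HOXD4, 53 nt before the start, chr2:176151485-176151509, plus strand: acccggtgatAAACTtgctccctcg

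The HOXD10 site past the start had 9 of 108 reads substituted in KO replicate 1 and 5 of 110 in KO replicate 2 and was not listed in WT. The HOXD11 site had 4 of 72 and 5 of 105 in the KO libraries and 4 of 105 in WT, the only one of the 5 present in all 3 lists. The 4 sites before a start lie outside every HOX span of the gene table and are not among the HOX sites counted below. On the HOX strand but outside every HOX span, before a start or not, the HOXD cluster had 10 sites in KO replicate 1. It had 8 in KO replicate 2 and 9 in WT. In the same order the counts were 3, 12 and 7 in HOXA, 3, 6 and 7 in HOXB, and 0, 1 and 1 in HOXC.

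HOX genes carried listed m6A sites more often than other protein-coding genes, and those with a site carried more of them at the median. A site was listed for 32 of 39 HOX genes in each of the KO libraries and in WT. Among 15862 protein-coding genes with a known strand, 46.6% had a site in KO replicate 1, 48.6% in KO replicate 2 and 47.8% in WT. HOX genes are short, with a median span of 3785 nt against 25513 nt, and among 2284 coding genes of like span (between the quartiles of HOX spans) the shares were lower still, at 38.2%, 39.2% and 38.8%. HOX spans overlap other genes, and with only sites that 1 gene of the reference holds on either strand, 22 HOX genes had a site in KO replicate 1, 23 in KO replicate 2 and 20 in WT. The same rule left 41.6%, 43.4% and 43.0% of coding genes with a site, so the gap was narrower. The lists held 202 HOX sites in KO replicate 1, 227 in KO replicate 2 and 208 in WT, or 0.495%, 0.476% and 0.476% of each list. HOX genes with a site had a median of 5, 5.5 and 5 sites in KO replicate 1, KO replicate 2 and WT, where other coding genes had 3 in each. Reads were also denser at HOX sites: the median k was 68, 86 and 62 in the 3 libraries, against 40, 46 and 33 at sites of all coding genes. A site needs reads to be listed, and the part of read density in these counts was not tested.

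Of the 39 genes, 34 had a site in at least 1 of the 3 lists, where 56.1% of coding genes did, and 29 in every list, where 38.6% of coding genes did. The 5 genes between these counts rested on few substituted reads, at most 9 for a gene in a library. HOXA2, a hindbrain and second-arch gene, had 1 site in KO replicate 1 alone with 2 of 9 reads substituted. Sites of HOXA7 and HOXB7 were listed in KO replicate 2 and WT, those of HOXB4 in KO replicate 1 and WT, and those of HOXC8 in both KO libraries. No site was listed for HOXB1, HOXC5, HOXC12, HOXD1 and HOXD12. HOXC5 shares its annotated start with HOXC4 and the shorter HOXC6, so a site in their common part is counted for HOXC6.

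**Figure D1:**
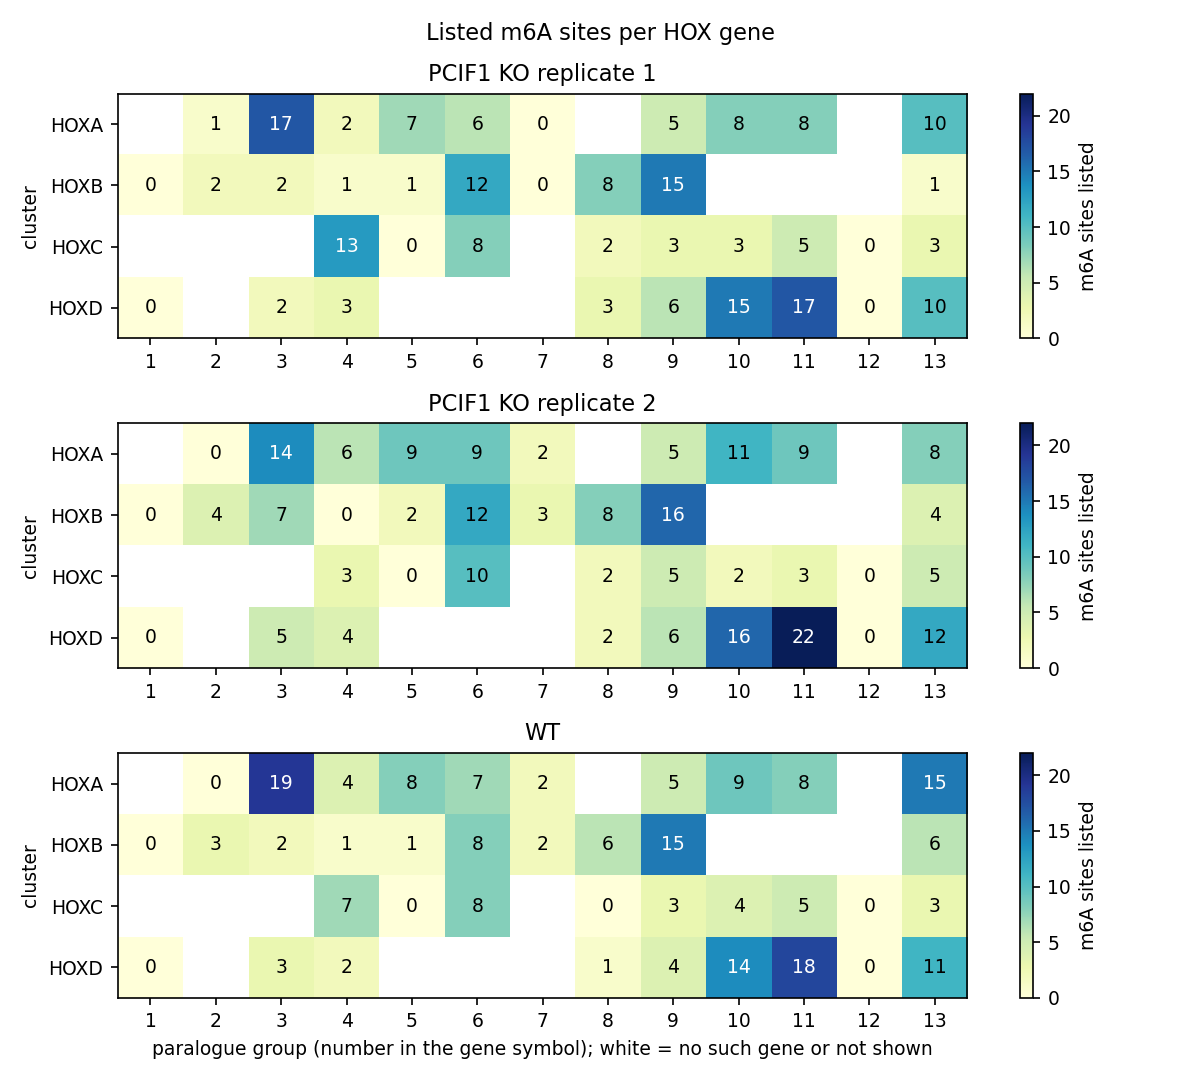
Number of listed m6A sites in HOX genes (colour and digit), with clusters as rows and paralogue groups as columns, for KO replicate 1, KO replicate 2 and WT from top to bottom; white squares are genes that do not exist or are not shown. HOXA3, HOXB9, HOXD10 and HOXD11 have 14 or more sites in each library, and both genes of paralogue group 12 stand at 0.

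The HOXA cluster held the most sites: 67 in KO replicate 1, 74 in KO replicate 2 and 81 in WT. The HOXD cluster followed with 56 and 67 in the KO libraries and 53 in WT, then HOXB with 42 and 56 in KO and 44 in WT, and HOXC with 37 and 30 in KO and 30 in WT. HOXA and HOXD were the 2 clusters with the most sites in every library, and the order of HOXB before HOXC was the same in all 3. The pooled substitution rate was highest in HOXC. It was 7.73% of reads in KO replicate 1 (interval 6.55 to 9.05%), 6.87% in KO replicate 2 (5.77 to 8.10%) and 9.05% (7.64 to 10.6%) in WT. In the other clusters it lay between 5.05% and 6.64%. HOXC sites also had fewer reads. The deepest had 117 and 137 reads in KO and 132 in WT, where the deepest of each other cluster had 287 to 520. No listed site has under 2 substituted reads, so a site with few reads is listed only at a high rate. The part of read number in the HOXC rate was not tested.

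By position along the body axis, the tail-end genes (paralogue groups 9 to 13, 16 genes) held most sites: 109 in KO replicate 1, 124 in KO replicate 2 and 120 in WT, or 54.0%, 54.6% and 57.7% of HOX sites. Of these 16 genes 14 had a site in every list; HOXC12 and HOXD12 had none in any. The central genes (groups 4 to 8, 15 genes) held 66 and 72 sites in KO and 57 in WT, and 10 of them had a site in every list. The head-end genes (groups 1 to 3, 8 genes) held 27 and 31 in KO and 31 in WT, with 5 of 8 in every list. All 4 genes of group 9 and all 4 of group 13 had sites in each library.

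Among the head-end genes, HOXA3, which in mice is needed for the thymus and parathyroid, had 17 sites in KO replicate 1, 14 in KO replicate 2 and 19 in WT. Its annotated span is the longest of the HOX genes, at 45574 nt, and runs across its neighbours. Of its 28 distinct sites, 18 lie in the 1714 nt between HOXA5 and HOXA6. The gene table does not tell the RNA of HOXA3 there from that of these neighbours. A further 5 lie 3′ of HOXA4, in a part of the span that HOXA3 shares with no other HOX gene. HOXB2 had 2 and 4 sites in KO and 3 in WT, HOXB3 had 2 and 7 in KO and 2 in WT, and HOXD3 had 2 and 5 in KO and 3 in WT. The number of sites therefore differed as much between the KO libraries as between KO and WT for HOXB3.

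Among the central genes, HOXB6 had 12 sites in each KO library and 8 in WT, and HOXB8 had 8 in each KO library and 6 in WT. HOXA5, which acts in lung development, had 7 and 9 in KO and 8 in WT. HOXA6 had 6 and 9 in KO and 7 in WT, with 9 distinct sites inside 367 nt near its 3′ end. Those from 27145452 to 27145482 all have the motif AAACA, and whether they are separate sites was not tested. HOXC4 had 13 sites in KO replicate 1 but 3 in KO replicate 2, with 7 in WT, and all 14 of its distinct sites lie past the end of HOXC5, in the part of its span that it shares with no other HOX gene. HOXC6 had 8 and 10 sites in KO and 8 in WT. HOXA4 had 2 and 6 sites in KO and 4 in WT, HOXD4 had 3 and 4 in KO and 2 in WT, HOXD8 had 3 and 2 in KO and 1 in WT, and HOXB5 had 1 and 2 in KO and 1 in WT. None of the central genes had more sites in WT than in both KO libraries.

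Among the tail-end genes, HOXD11, which with HOXA11 is needed in mice for the forearm and the kidney, had the most sites: 17 in KO replicate 1, 22 in KO replicate 2 and 18 in WT. It also had the deepest site, with 465, 520 and 451 reads. Of its 30 distinct sites 10 lie within 473 nt (chr2:176108966-176109438). HOXD10 had 15 and 16 sites in KO and 14 in WT, with 10 of its 23 distinct sites in 492 nt that begin 24 nt past its start. HOXB9 had 15 and 16 sites in KO and 15 in WT, the narrowest range among the 4 genes with over 10 sites in every list. HOXA13, mutated in hand-foot-genital syndrome, had 10 and 8 in KO and 15 in WT, and HOXD13, mutated in synpolydactyly, had 10 and 12 in KO and 11 in WT. HOXD13 had 8 distinct sites inside 245 nt. HOXA10 had 8 and 11 sites in KO and 9 in WT, HOXA11 had 8 and 9 in KO and 8 in WT, and HOXA9 had 5 in each library. The HOXC genes of this class with a site had 2 to 5: HOXC9 3 and 5 in KO and 3 in WT, HOXC10 3 and 2 in KO and 4 in WT, HOXC11 5 and 3 in KO and 5 in WT, and HOXC13, which acts in hair, 3 and 5 in KO and 3 in WT. HOXD9 had 6 sites in each KO library and 4 in WT. HOXB13, a prostate gene that lies apart from the rest of its cluster, had 1 and 4 in KO and 6 in WT. The 6 genes with the most sites (HOXD11, HOXA3, HOXD10, HOXA13, HOXB9 and HOXB6) held 141 of all 366 distinct HOX sites, or 38.5%.

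**Figure D2:**
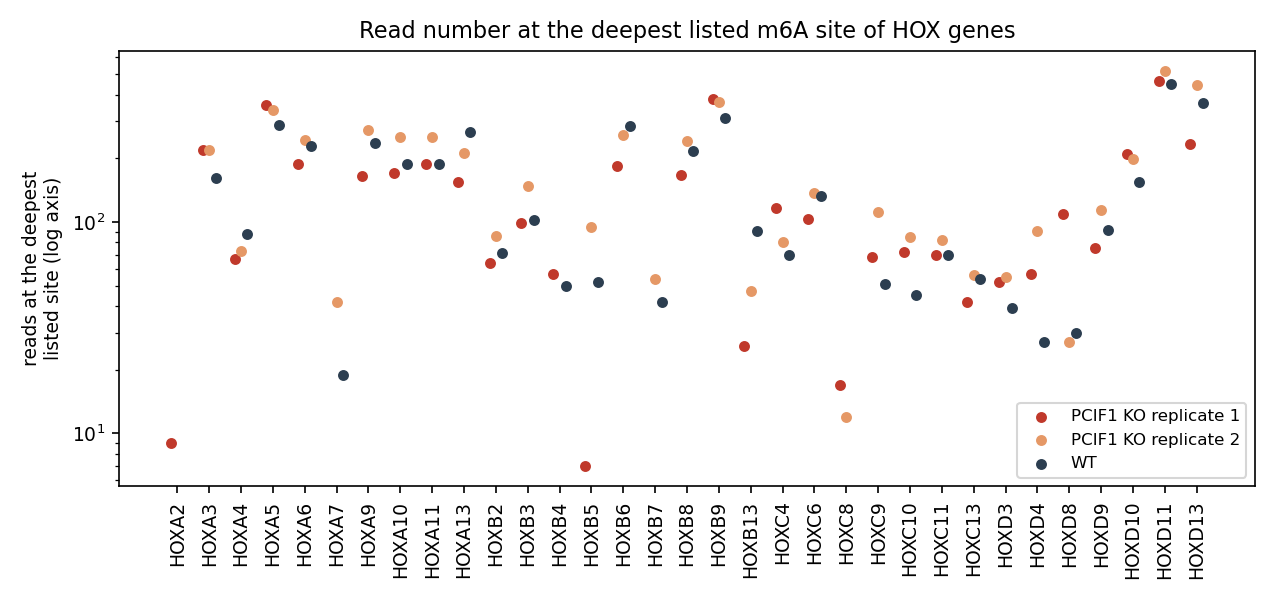
Number of reads at the deepest listed m6A site of HOX genes (log axis), for KO replicate 1, KO replicate 2 and WT; genes run by cluster and number. HOXD11 is highest at 520 reads in KO replicate 2, and the deepest site of HOXA2 has 9 reads in KO replicate 1.

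The 10 sites with the most substituted reads over the 3 lists belong to 7 genes, and all 10 are in every list, with 119 to 520 reads. The first is in HOXA10 at 27171338 on chromosome 7 (minus strand, motif GGACA, 733 nt before the gene's 3′ end). The spans of 3 genes, counted on either strand, hold this site. It had 27 of 138 reads substituted in KO replicate 1 (19.6%, interval 13.3 to 27.2%), 34 of 151 in KO replicate 2 (22.5%, 16.1 to 30.02%) and 29 of 119 in WT (24.4%, 16.97 to 33.1%). Its rate was about as high in every library, and the intervals overlap. HOXD11 has 3 of the 10, close together in the dense stretch given above. At 176109106 (AGACC) the rate was 7.63% of 367 reads and 9.09% of 385 in KO and 6.21% of 322 in WT. At 176109326 (GGACT), the deepest HOX site, it was 4.09% of 465 and 4.81% of 520 in KO and 4.88% of 451 in WT. At 176109014 (AGACT) it was 5.78% of 294 and 3.78% of 370 in KO and 6.52% of 276 in WT. WT was below both KO libraries at the first of these sites and above both at the others.

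HOXD13 has 2 of the 10, towards its 3′ end. At 176095671 (TGACT) the rate was 3.85% of 234 reads and 5.16% of 446 in KO and 5.22% of 364 in WT. At 176094569 (GAACT) it was 10.7% of 187 in KO replicate 1 (6.66 to 16.0%), 3.72% of 296 in KO replicate 2 (1.87 to 6.55%) and 6.88% of 218 (3.90 to 11.1%) in WT. The KO libraries were the 2 extremes at this site, their intervals did not overlap, and WT lay between them. HOXB9 at 48625851 (AAACT) had 6.48% of 247 and 8.19% of 281 in KO and 5.64% of 266 in WT. HOXB6 at 48598039 (AGACA) had 8.74% of 183 and 7.05% of 241 in KO and 6.50% of 200 in WT. HOXB8 at 48614612 (GGACC) had 6.59% of 167 and 6.20% of 242 in KO and 8.80% of 216 in WT. HOXA9, a gene known for its part in acute myeloid leukaemia, had at 27163549 (GAACT) 3.64% of 165 and 8.49% of 271 in KO and 6.33% of 237 in WT. WT was above both KO libraries at 5 of the 10 sites, below both at 3 and between them at 2, and every KO interval overlapped the WT interval.

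**Figure D3:**
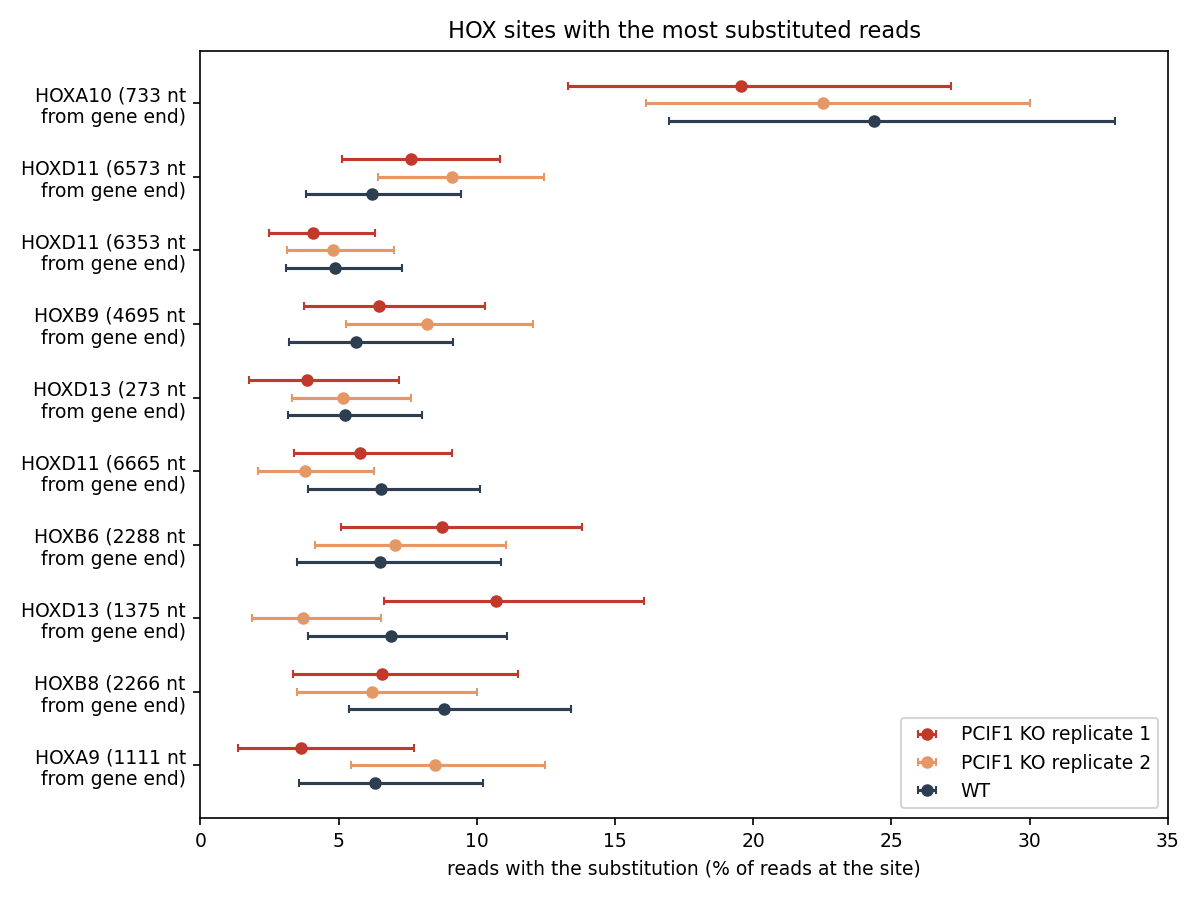
Share of reads with the substitution (%) at the 10 HOX sites with the most substituted reads, for KO replicate 1, KO replicate 2 and WT; bars are exact 95% intervals of counting error. The HOXA10 site stands apart at 19.6 to 24.4%, and at every site the WT interval overlaps those of both KO libraries.

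Across all sites, 86 of the 366 distinct HOX sites were in all 3 lists, from 23 genes, 99 were in 2 lists and 181 in 1. At these 86 the pooled rate was 5.80% in KO replicate 1 (5.39 to 6.24%), 5.59% in KO replicate 2 (5.22 to 5.97%) and 5.85% (5.44 to 6.28%) in WT. The 9659 sites that all 3 lists share in coding genes had 6.53%, 6.38% and 6.58%. Both KO libraries were above WT at 25 of the 86 sites, both were below it at 33, and WT lay between them or equal at 28. Intervals of KO replicate 1 and WT overlapped at 86 of 86 sites, and those of KO replicate 2 and WT at 86. Those of the KO libraries with each other overlapped at 85. Neither these overlaps nor the counts above and below WT were taken over the 9659 shared coding sites. No general share therefore stands beside these HOX counts. Single rates ran from 1.71% to 45.0%; the highest was in HOXD9 at 176124625 (GGACA), with 9 of 20 reads in KO replicate 1, 9 of 43 in KO replicate 2 and 6 of 20 in WT. At that depth the intervals were wide, from 23.1 to 68.5% in KO replicate 1, 10.04 to 36.0% in KO replicate 2 and 11.9 to 54.3% in WT.

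**Figure D4:**
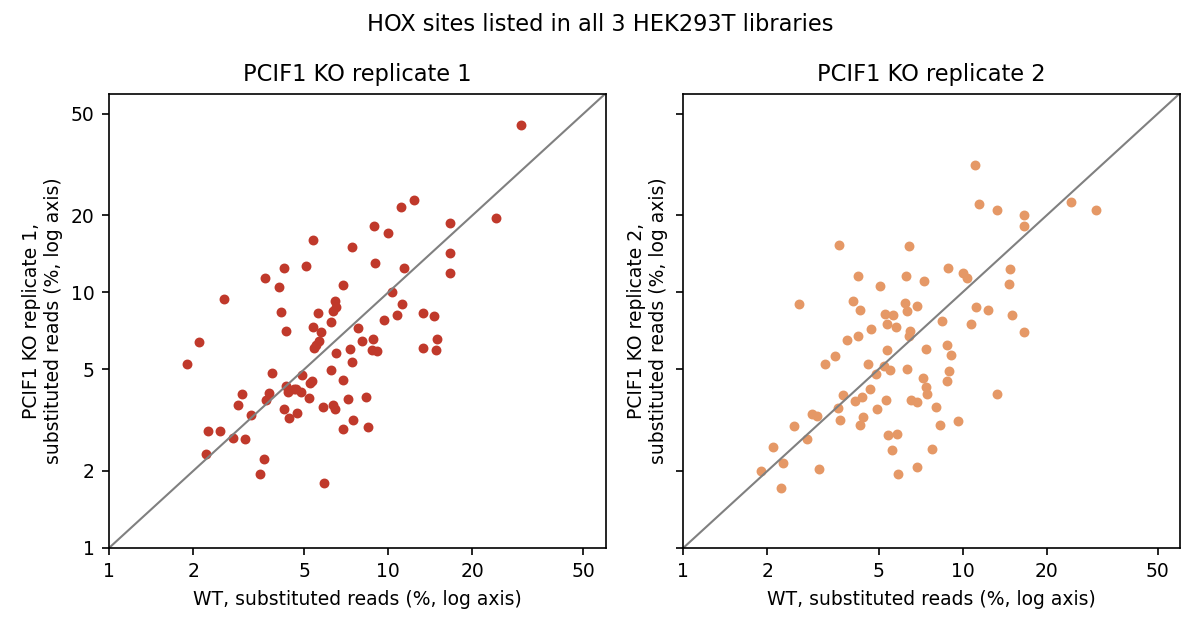
Share of substituted reads (%, log axes) at the 86 HOX sites in all 3 lists, with WT across and KO replicate 1 (left) or KO replicate 2 (right) up; the line marks equal shares. Points lie on either side of the line in each plot, with both KO libraries above WT at 25 sites and below it at 33.

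Sites in fewer lists had few substituted reads. No HOX site with 10 or more substituted reads in a library was in that list alone. Of the WT sites with at least 10 such reads, 28 of 28 were in the list of each KO library. For KO replicate 1 it was 24 of 24 in the other lists. Of 38 such sites in KO replicate 2, 35 were in KO replicate 1 and 34 in WT. Sites of all coding genes with at least 10 such reads were shared about as often, from 88.96% of those of KO replicate 2 in KO replicate 1 to 95.8% of those of WT in KO replicate 2. Of the HOX sites with 2 substituted reads in a library, 11.1% to 22.2% were in a given other list. For such sites of all coding genes it was 10.2% to 14.9%. The KO libraries shared about as many sites with each other as with WT. Of the sites of KO replicate 1, 58.9% (51.8 to 65.8%) were in KO replicate 2 and 55.9% (48.8 to 62.9%) in WT. Of those of KO replicate 2, 52.4% (45.7 to 59.1%) were in KO replicate 1 and 55.1% (48.3 to 61.7%) in WT. KO replicate 1 listed 54.3% of the WT sites (47.3 to 61.2%) and KO replicate 2 listed 60.1% (53.1 to 66.8%). For WT sites of all coding genes these shares were 38.96% and 44.2%.

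The lists left 33 HOX sites in both KO libraries and not in WT. A further 56 were in WT alone, 56 in KO replicate 1 alone and 69 in KO replicate 2 alone. No share of coding sites was taken for these patterns. Sites missing from another list were common in coding genes too. Of coding sites, 41.7% of those of KO replicate 1 and 40.3% of those of KO replicate 2 were in WT. Among the 33 HOX sites, HOXB6 at 48596004 (AGACT) had 5 of 136 and 14 of 193 reads substituted in KO. HOXD11 at 176109100 (GAACA) had 6 of 322 and 13 of 372, next to the HOXD11 site at 176109106 that all lists hold. HOXB9 at 48621734 (GGACA) had 6 of 178 and 12 of 189. The site of WT alone with the most substituted reads was in HOXB6 at 48598214 (GGACT), with 9 of 284. The next were in HOXA13 at 27198356 with 8 of 100 and in HOXC13 at 53945915 with 7 of 48. The lists give no read number where a site is not listed, so the rate in the other genotype is not known at these sites.

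The motif of HOX sites was like that of other genes, and their place along the gene was not. A GGAC core was at 34.7% of HOX sites in KO replicate 1 (28.1 to 41.7%), 36.1% in KO replicate 2 (29.9 to 42.7%) and 34.1% (27.7 to 41.0%) in WT, against 34.4%, 34.3% and 33.9% in coding genes. The last 20% of the gene span held 39.1% and 40.5% of HOX sites in KO and 35.6% in WT, where it held 57.9%, 56.8% and 56.2% of sites in coding genes. The first 20% held 24.8% and 23.3% in KO and 24.0% in WT, against 9.26%, 9.71% and 10.4%. These HOX shares include the listed ones of the 18 distinct HOXA3 sites between HOXA5 and HOXA6. There the gene table does not tell the RNA of HOXA3 from that of its neighbours. Measured in nucleotides, 13.4% and 15.4% of HOX sites in KO and 13.9% in WT lay within 500 nt of the start, against 2.35%, 2.63% and 2.79%. Within 1000 nt of the 3′ end lay 31.2%, 35.2% and 29.8% of HOX sites, against 20.7%, 21.0% and 20.3%. HOX sites thus had a larger share near the start on each of these measures, but near the 3′ end the share was larger in nucleotides and smaller as a part of the span. HOX spans were shorter (median 3785 nt against 25513 nt), and the part of span length in these shares was not tested.

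**Figure D5:**
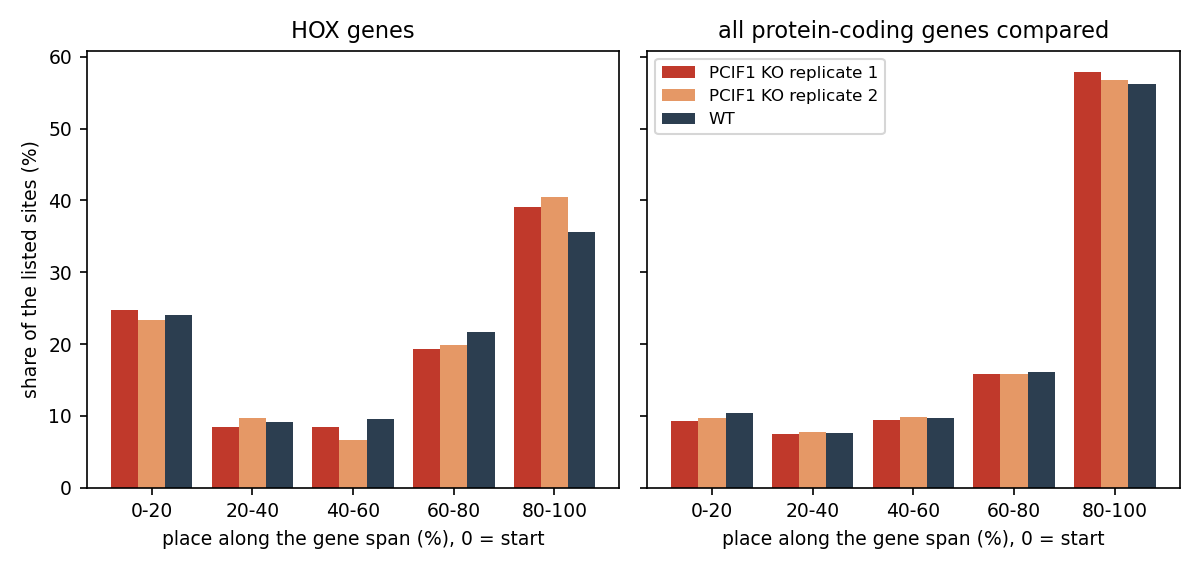
Share of listed m6A sites (%) in each 20% of the gene span from start to end, for HOX genes (left) and all protein-coding genes compared (right), in KO replicate 1, KO replicate 2 and WT. HOX genes have 24.8%, 23.3% and 24.0% of their sites in the first 20%, where coding genes have 9.26%, 9.71% and 10.4%. The HOX shares there include HOXA3 sites between HOXA5 and HOXA6, whose gene is uncertain.

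The m6Am mark itself was listed at or near the starts of 2 HOX genes. The authors' deposited list of m6Am regions has 2360 in all, with a score of unstated scale. It has a region within 50 nt of the start of 2 of 39 HOX genes, against 11.0% of coding genes. With 39 genes, a count of 2 does not tell HOX genes apart from that share, and the difference was not tested. One covers the start of HOXA3 (chromosome 7, 27152501 to 27152600, minus strand, score 4.12, rank 160 by score). The other lies 43 nt upstream of the start of HOXB9 (chromosome 17, 48626401 to 48626500, minus strand, score 2.46, rank 1911). The HOXC and HOXD clusters hold none. Inside the HOXA cluster a further region lies on the plus strand at 27096101 to 27096200 (score 2.54, rank 1779). It begins 7 nt inside HOTAIRM1, a noncoding RNA of the strand opposite to the HOX genes. Inside the HOXB cluster a region at 48636451 to 48636550 (minus strand, score 2.84, rank 1263) lies within LINC03057, a noncoding gene, 10093 nt upstream of HOXB9. No m6A site of any of the 3 libraries lies inside these 4 regions.

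HOXA3 has 7 annotated starts in the RefSeq windows, of which the one in the region is the farthest upstream. The start inside the region and the next one downstream are shown with 30 bases before and 15 from the start, the first transcribed base in capitals.
HOXA3, start in the m6Am region, chr7:27152569-27152613, minus strand: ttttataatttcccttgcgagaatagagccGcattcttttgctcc
HOXA3, next start downstream, chr7:27150936-27150980, minus strand: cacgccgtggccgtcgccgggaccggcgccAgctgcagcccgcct
The annotated first base in the region is G, and 4 of the 7 HOXA3 starts are on A, the base that PCIF1 methylates. Over the 20 HOX genes with windows, 9 of 27 starts (33.3%) were on A, against 44.4% of 35116 starts of all genes. With so few HOX starts, 7 of them of HOXA3, this difference was not tested. Annotated starts may differ from the starts used in HEK293T, and the list gives regions rather than bases.

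Transcripts of the opposite strand also carried m6A sites, most of them in the HOXA cluster. There the lists held 12 sites in KO replicate 1, 30 in KO replicate 2 and 21 in WT on the strand opposite to the HOX genes. HOXA11-AS, the noncoding RNA beside HOXA11, had 5 and 14 of them in KO and 14 in WT. HOTAIRM1 had 1 and 2 in KO and 3 in WT. In the HOXC cluster 3 sites stood on that strand in each library, and HOTAIR, which is read from there and is known for binding chromatin modifiers, had 2 and 3 in KO and 3 in WT. In HOXB it was 0 and 1 in KO and 1 in WT, and in HOXD 3 and 4 in KO and 3 in WT. Of 20 noncoding and other genes inside the clusters, 6 and 6 had a site in KO and 4 in WT, and 3 had one in every list. Among coding genes the shares were 46.6% and 48.6% in KO, 47.8% in WT and 38.6% in every list. No share over all noncoding genes was taken.

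The partners and regulators of HOX proteins were counted in the same way; examples among them, other than KMT2A, were picked after their values were seen. The shares of all coding genes to read them against are those above, 46.6%, 48.6% and 47.8% in KO replicate 1, KO replicate 2 and WT and 38.6% in every list, though some listed genes without a known strand were counted on either strand. Of 9 TALE cofactors, homeodomain proteins that bind DNA together with HOX proteins, 7 and 7 had a site in KO and 6 in WT, and 6 in every list. PBX2 had 3 sites in each library, with up to 32 and 51 substituted reads in KO and 57 in WT, and MEIS2 had 8 and 9 sites in KO and 5 in WT. Of 20 chromatin regulators of the clusters, 19 and 20 had a site in KO and 16 in WT, and 16 in every list. KMT2A, the histone methyltransferase that keeps HOX genes active, had 42 and 39 sites in KO and 38 in WT, and BMI1, a Polycomb protein that keeps them silent, had 8 and 10 in KO and 7 in WT. EZH2, EED, CBX7 and PHC1 were the 4 without a site in WT. Of 11 other homeobox genes related to HOX, 3 and 4 had a site in KO and 4 in WT, and CDX2, an activator of HOX genes, had the most, with 9 and 11 in KO and 8 in WT. Of 9 genes that flank the clusters 6 had a site in each library, and 4 in every list.

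An RNA level is set beside the sites for KMT2A. KMT2A had 187.4, 208.9 and 178.6 CPM (counts scaled to library size) in the 3 KO input libraries and 225.6 and 196.6 in the 2 WT libraries. The groups overlapped, and the log2 fold change of KO over WT was -0.17 (SE 0.11, edgeR quasi-likelihood test, adjusted p = 0.623). Without WT replicate 1 the value was -0.04 and without WT replicate 2 it was -0.26 (edgeR adjusted p = 0.997 and 0.0911), with 1 WT library left that is assumed to vary as the KO libraries do. It did not pass the threshold, in a comparison where 0.0342% of 14629 genes were called lower in KO (5 genes), 0 were called higher and 1360 had an unadjusted p under 0.05. In the authors' deposited table of translational efficiency, KMT2A, whose start that table classes as m6Am, had a log2 fold change of -0.99 (SE 0.44, adjusted p = 0.487).

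Sites in marker genes of the cell line were counted too, which shows transcripts that carry the mark and not their level. IRS4, a docking protein typical of HEK293 cells, had 58 and 60 sites in KO and 69 in WT, and 489.7 ± 39.8 CPM in KO and 519.4 ± 31.9 CPM in WT input (SD, n = 3 and 2). Of 10 HEK293 markers 3 and 5 had a site in KO and 5 in WT, and 3 in every list; KRT8, KRT18, PAX8 and LHX1 had none in any list. These counts are near the shares of all coding genes (46.6%, 48.6%, 47.8% and, in every list, 38.6%) and do not identify the line. Of 7 fibroblast markers 0 and 0 had a site in KO and 1 in WT (COL1A1, 2 of 9 reads), and of 5 blood and 4 endothelial markers none did. Of 4 pluripotency markers SOX2 alone had sites, 1 and 6 in KO and 2 in WT. The miCLIP lists as a whole held 40768 and 47644 sites in KO and 43663 in WT, and the input libraries held 4511687 to 5960674 counts. PCIF1 itself is not analysed here, so the knockout was not checked.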

How the data were processed

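The miCLIP lists were deposited by the authors as positions with whole-number counts of substituted reads and of reads at the site, with 1 list for each library. The lowest number of substituted reads at any listed site is 2. The deposited m6Am regions carry a score whose scale is not stated in the labels or the file. Input RNA was deposited as read counts per Ensembl gene with no normalization. The authors' deposited tables give log2 fold changes, a mean normalized signal, a test score and p-values for translational efficiency, and a KO over WT ratio for SLAM-seq. The correlation of that log2 fold change with KO over WT from the counts, 0.94 across genes, gives its direction, which the table does not state. Per the submitters' processing notes the tools include BWA 0.7.17, STAR, bedtools and deepTools. Which tool made which file is not given in the sources used here.

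Sites were assigned in Python 3.11.15 (pandas 2.3.3, scipy 1.17.1) to the shortest protein-coding span on their strand in the RefSeq gene table of GRCh38.p14. Strand came from a start table for 20 HOX genes and from the cluster for the other 19. Listed genes without a strand in the table were counted on either strand, except those inside the clusters. Those inside the clusters, such as HOTAIR and HOTAIRM1, were given the strand opposite to the HOX genes. Input counts (14629 of 58381 genes after filterByExpr) were compared between KO and WT in edgeR 4.0.16 (R 4.3.3), by its quasi-likelihood test with TMM factors, two-sided, Benjamini-Hochberg adjusted over all genes tested, with a threshold of 0.05. Site assignment and the count test were tested on simulated data first. The planned test of HOX genes in the input was not made, because no source used here pairs their identifiers with symbols (0 HOX symbols in the deposited class tables). For the same reason the planned choice of named genes by CPM could be applied to few genes, of which KMT2A and IRS4 are given. The text otherwise names the HOX genes, the 10 sites with the most substituted reads, and every m6Am region within 200 nt of a HOX start; some items are not reported here. The members and lists were chosen with earlier results of these data known. Alternatives covered minimum reads, overlapping genes, the distance to a start, and the tool, filter, block and libraries of the input test.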

Additional observations from a re-analysis of the deposited data

How the results depend on the processing

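Requiring at least 5 substituted reads left 97 HOX sites in KO replicate 1, 117 in KO replicate 2 and 96 in WT, 168 distinct in all. The HOX genes with a site fell from 32 in each library to 22 in KO replicate 1, 25 in KO replicate 2 and 24 in WT. No share of coding genes was taken at this limit. It left 44 sites in all 3 lists, with a pooled rate of 5.20% in KO replicate 2. Keeping sites held by 1 gene of the reference on either strand left 132, 140 and 133 sites, 228 distinct, and 22, 23 and 20 genes with a site, since spans in the clusters overlap. 1 m6Am region was left when it had to cover the start, and 1 in the upper part of the list by score. Without KO replicate 1 or 2 the distinct sites numbered 310 and 297. Among all genes of the input, DESeq2 1.42.0 called 15, the test without a filter on low counts called 152, and leaving out 1 library in turn gave 2 to 1912, the highest without WT replicate 2 and 53 without WT replicate 1. The cause was not tested. With the replicate number as a block 3 genes were called. The numbers were not taken to pair the samples, as the 2 correlations of deviations were 0.175 and -0.0031. Neither KMT2A nor IRS4 passed the threshold in that fit. Across the alternatives, 20 of the main counts and rates were classed as moved and 26 as the same. Of the values of single genes or shared-site counts, 3 were classed as moved and 29 as the same. Those classed as the same stayed within the limit set for a change, or kept their direction and side of the threshold. For gene counts that limit was wide, since the fall from 32 to 22 lay inside it. Read number limits the sites: at 20 reads or more 285 of the 366 remained.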
